A study of Rattus norvegicus with 6 samples.

Results

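The cells described here were drawn from droplet single-cell libraries (10x Genomics) of rat cerebral hemisphere and were chosen by the pituitary hormone genes they contained. A barcode, the tag that stands for a droplet, was a member when it held at least 500 UMIs (unique molecular identifiers, each counting a captured RNA molecule), at least 5 UMIs of Cga or 3 of Tshb or 20 of Pomc, and at most 1 of the microglial genes P2ry12, Tmem119, Gpr34 and Cx3cr1. In the 3 control (NC) libraries 199 of 20306 barcodes met this rule, and in the 3 carbon monoxide (CO) libraries 20 of 17847 did, out of 38153 barcodes of that depth in the series. CO rats breathed 1000 ppm of the gas for 40 min and then 3000 ppm for 20 min, and the series description counts poisoning as severe when consciousness was impaired and carboxyhemoglobin passed 60%. NC rats were labelled as negative controls, 3 rats stand behind each group, and strain, age and sex were not given in the sources used here. Brain tissue was digested with trypsin and DNAse I before droplets were made.

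Cga encodes the alpha subunit that the glycoprotein hormones of the pituitary share, and Tshb encodes the beta subunit that makes thyrotropin of it. Both are made by thyrotrophs of the anterior lobe and by the specific cells of the pars tuberalis, the sheath of pituitary tissue around the stalk under the hypothalamus, which carry the melatonin receptor Mtnr1a and whose thyrotropin acts on tanycytes, the glia lining the third ventricle. Pomc encodes the precursor of corticotropin and melanocyte-stimulating hormone and is used by corticotrophs and melanotrophs of the pituitary and by neurons of the arcuate hypothalamus. None of these cells belongs to the cerebral hemisphere named in the labels, and how pituitary or hypothalamic tissue may have entered the samples was not tested.

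The barcodes were not independent, which bears on every count below. Of all 42293 barcodes, 99.23% had another barcode of the same group that shared at least 70% of the genes detected in either. Linking such barcodes gave 15399 profiles, of which 327 held 1 barcode, 3250 held 2 and 11822 held 3, with none larger and none that mixed CO with NC. Among the profiles of 3, 7828 lay across 2 libraries and 2621 across all 3, although the libraries shared 1 barcode sequence in all. For the NC members the closest barcode shared a median of 76.24% of genes, the second 74.56% and the third 14.46%. The 199 NC members thus made up 94 profiles and the 20 CO members 8. How such near copies arose was not tested. The variance between libraries of a group was 1.12 times that within libraries in CO (10791 genes) and 1.01 times in NC (10837 genes), where 1 is the value for parts of a single pool. Each group was therefore counted as 1 sample, no p-value is given, and 95% intervals cover counting error only. Unless stated otherwise, intervals of ratios count each profile once, at the mean of its copies. Intervals of shares of barcodes and of levels in CPM take near copies as independent and are too narrow.

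The libraries themselves were alike in depth. They held 39494470 to 42975621 UMIs in CO and 42448680 to 47322264 in NC, and the median over barcodes of at least 500 UMIs was 5600 to 5667.5 in CO and 4808 to 4883.5 in NC. That minimum left out 9.17% to 9.67% of CO and 9.76% to 10.5% of NC barcodes.

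**Figure D1:**
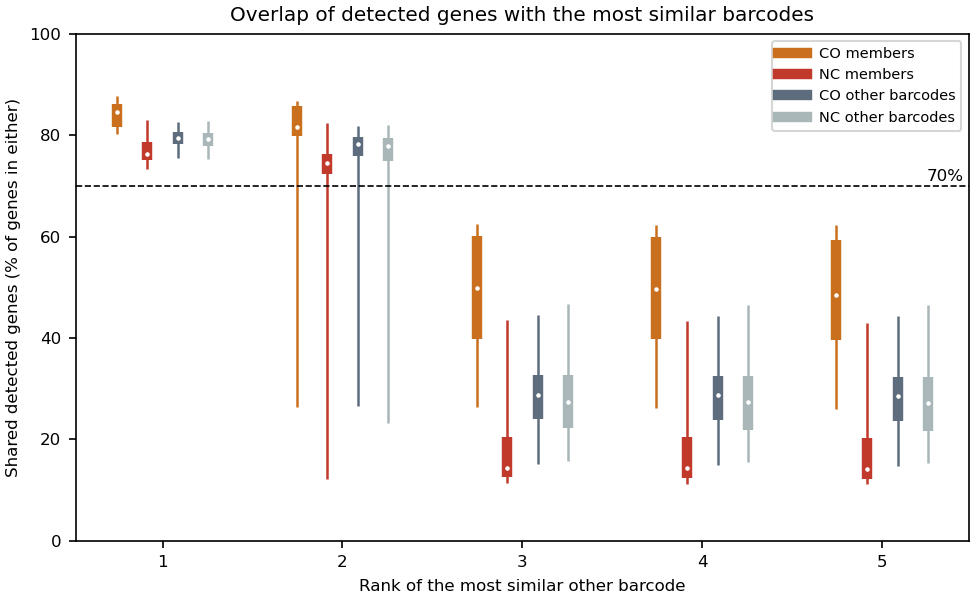
Share of detected genes that a barcode has in common with its 5 most similar other barcodes, as a percentage of the genes detected in either, against the rank of that barcode. Dots are medians, thick bars the middle 50% and thin bars the middle 90% of barcodes, for CO members, NC members, other CO barcodes and other NC barcodes. In each of these sets the medians of the first and second ranks lie above the dashed 70% line, and from the third rank on they lie below 50%.

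The 3 genes that define the members are shown here by the 250 bases before their RefSeq start sites (build GRCr8), because Cga and Tshb RNA were found together in many members while Pomc was found apart from them. They lie at chr5:54283090-54283339 on the + strand (Cga, ENSRNOG00000009269), chr2:192918055-192918304 on the - strand (Tshb, ENSRNOG00000016793) and chr6:32659103-32659352 on the + strand (Pomc, ENSRNOG00000012686), and each is printed in the direction of its gene. Capitals mark matches of GATAA, TGANGTCA and TATAAA, found on either strand.
Cga: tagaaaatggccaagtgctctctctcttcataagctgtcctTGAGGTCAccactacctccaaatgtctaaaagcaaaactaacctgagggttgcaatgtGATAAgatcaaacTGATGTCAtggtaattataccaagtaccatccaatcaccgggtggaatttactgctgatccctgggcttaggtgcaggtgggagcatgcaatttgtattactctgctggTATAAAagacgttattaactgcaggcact
Tshb: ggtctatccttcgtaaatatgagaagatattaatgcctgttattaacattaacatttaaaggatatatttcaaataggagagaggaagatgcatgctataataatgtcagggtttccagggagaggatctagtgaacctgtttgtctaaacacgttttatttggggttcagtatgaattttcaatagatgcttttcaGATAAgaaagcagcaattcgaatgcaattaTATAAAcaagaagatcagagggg
Pomc: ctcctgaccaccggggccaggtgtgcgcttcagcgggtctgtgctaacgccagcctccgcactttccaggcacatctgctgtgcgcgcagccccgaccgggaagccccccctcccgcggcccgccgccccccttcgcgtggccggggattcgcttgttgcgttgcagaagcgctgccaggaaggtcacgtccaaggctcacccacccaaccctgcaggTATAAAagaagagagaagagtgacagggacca
All 3 windows held 1 TATAAA, a motif found in 12.9% of 33469 windows of this kind. Cga and Tshb each held 1 GATAA (23.5% of windows), and Cga held 2 matches of TGANGTCA (8.88%), spelled TGAGGTCA and TGATGTCA. TAATCC (6.34%) and TTANGTAA (2.04%) had no match in these 3 windows, and CANNTG (65.5%, not capitalised) had 3 in Cga, none in Tshb and 2 in Pomc. These are matches of letters and say nothing of which factors bind there.

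By hormone, the NC members fell into 65 barcodes (37 profiles) with both Cga and Tshb at their thresholds, 91 (55 profiles) with Cga alone, 29 (24 profiles) with Tshb alone and 14 (5 profiles) with Pomc. No barcode passed the Pomc threshold together with that of Cga or Tshb. These classes are cut from the values that chose the members and are a description. They are also less firm than the profiles: of the 63 NC profiles with more than 1 member copy, 25 had copies in different classes. The gate divided profiles too, since the 94 NC profiles comprised 260 barcodes, of which 61 stayed outside it, 50 below the hormone thresholds, 7 through microglial genes and 4 under 500 UMIs. Of the NC members, 13 had exactly 5 Cga UMIs while 18 barcodes outside had 4, and 21 had exactly 3 Tshb UMIs while 76 outside had 2. Outside here means the 13000 NC barcodes of at least 500 UMIs with at most 1 microglial gene that were not members. No such crowding was seen for Pomc, where the highest NC barcode outside had 16 UMIs and the lowest Pomc member 26.

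What else the members expressed divided them further than the hormones did, and these subsets were formed after their values were seen. Of the 199 NC members, 147 (73 profiles) belonged to profiles of under 2000 UMIs on average and are called shallow. The others comprised 11 barcodes (4 profiles) rich in the granule protein gene Chgb, 21 (8 profiles) with the epithelial adhesion gene Epcam, 11 (4 profiles) with Pomc and little of the myelin gene Mbp, 3 (1 profile) with Pomc and much Mbp, 2 (2 profiles) with Tshb and much Mbp, and 4 (2 profiles) that met none of these criteria. Epcam alone does not separate the first 2 of these subsets, because the Chgb cut was applied before the Epcam cut. The Chgb-high barcodes held 35 Epcam UMIs, with at least 1 in 81.8% of them, and their profiles passed the Epcam cut too. Of the pituitary genes that the gate did not use, Mtnr1a, Nmu and Pitx1 had their highest level in the Chgb-high barcodes. The pituitary factors Eya1, Eya4 and Tbx19 were at 0 there, with 37 and 13 UMIs of Eya1 and Eya4 in Epcam-positive and 41 of Tbx19 in Pomc barcodes with little Mbp. Because of the first 3 genes, the label of pituitary hormone cells is used below for these alone. Any level summed over all members rests largely on the deepest of them: the 11 Chgb-high barcodes held 10611 of the 13679 Cga UMIs.

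**Figure D2:**
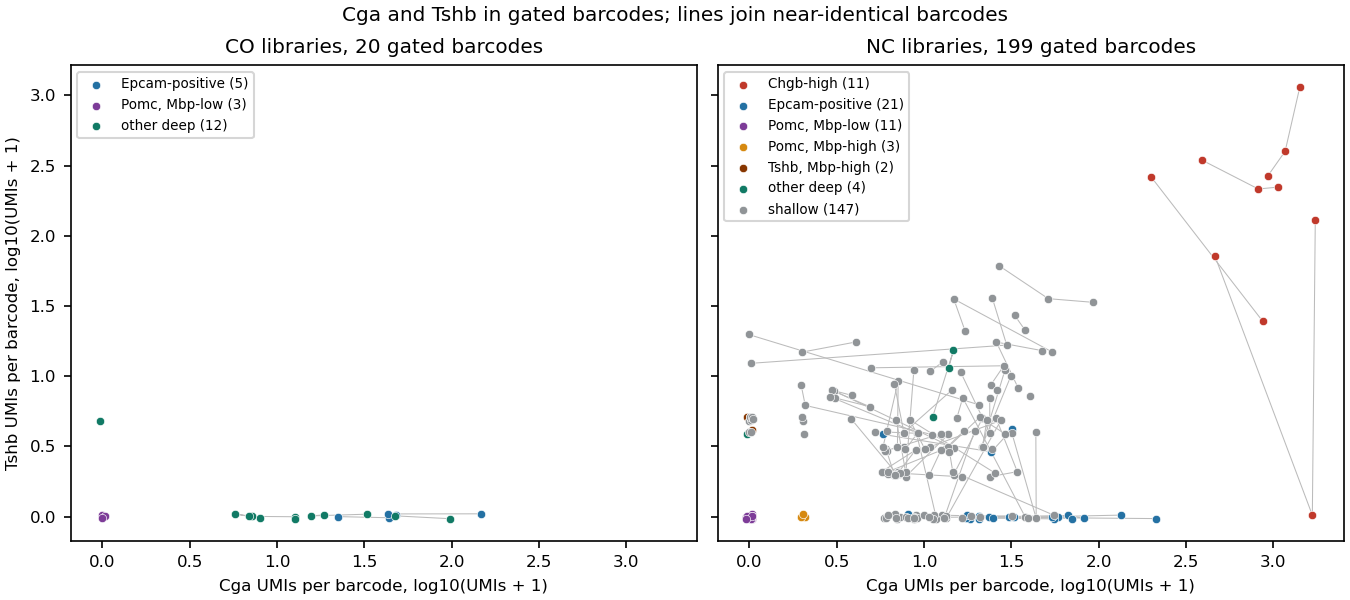
Tshb UMIs against Cga UMIs of each gated barcode, both as log10(UMIs + 1), in CO libraries (left) and NC libraries (right), coloured by subset, with grey lines between near-identical barcodes of a profile and points at equal values shifted slightly apart. The 11 Chgb-high NC barcodes, at 198 to 1713 Cga UMIs, lie apart from the 147 shallow ones, at 0 to 92, and no CO barcode inside the gate holds both genes at their thresholds.

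The Chgb-high barcodes combined thyrotropin subunits with genes of the pars tuberalis and of secretory granules. In the first of their 4 profiles the copies had 4767, 4573 and 4275 UMIs in all, of which 1058, 795 and 387 were Cga and 224, 222 and 359 Tshb. In the second, of 18145, 17661 and 17143 UMIs, Cga had 1420, 1134 and 950 and Tshb 1174, 395 and 275. The third had 2 copies of 12265 and 11640 UMIs, with 852 and 198 Cga UMIs and 24 and 269 Tshb UMIs. In the fourth, of 11908, 11601 and 10546 UMIs, Cga had 1713, 1627 and 477 and Tshb 126, 0 and 74. Cga and Tshb together made up between 4.01% and 26.9% of a barcode's UMIs, with a median of 14.0%. Copies of a profile thus had nearly the same total, within 1.13-fold, while Cga differed between them by 1.50-fold to 4.30-fold.

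Mtnr1a, the melatonin receptor, was found in 11 of the 11 Chgb-high barcodes, with 1 to 12 UMIs each and 53 in all, against 7 UMIs in the 20107 NC barcodes outside the gate. Pitx1, a transcription factor of the whole pituitary lineage, had 147 UMIs (1180.5 CPM, UMIs of a gene scaled to a total of 1000000) in the Chgb-high barcodes and 0.368 CPM in other NC barcodes, a log2 ratio of 11.65 (11.54, interval 10.76 to 12.38, with copies counted once). Nmu, the neuropeptide neuromedin U, known from the pars tuberalis of rats, was at 1678.4 CPM against 0.638 CPM in other NC barcodes. Eya3, known from the pars tuberalis of sheep as a coactivator at Tshb, stood at a log2 ratio of 3.47, carried largely by the third profile, whose 2 copies had 62 and 13 of the 82 UMIs, while Gata2, which acts at Tshb in thyrotrophs, stood at 2.64. Lhx3, needed for the anterior lobe, had 8 UMIs in 5 barcodes. Of 11 genes listed for the pars tuberalis 7 passed the minimum on counts and all 7 were at least 2-fold higher than in other NC barcodes, with Cga and Tshb themselves among them, against 23.5% of all 7732 genes tested that were higher and 24.0% that were lower. A gene that is close to absent elsewhere passes that minimum only if it is high here, so these counts are no test.

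Several pituitary genes were at 0 in these 11 barcodes. Pou1f1 and Trhr, the transcription factor and the releasing hormone receptor of thyrotrophs in the anterior lobe, had no UMI among 124524. If these UMIs were independent, 3 counts over the subset, the limit a count of 0 allows, would be 24.1 CPM. The 11 barcodes are near copies of 4 profiles, so that limit is too low. Gh1 of somatotrophs and Lhb of gonadotrophs also had no UMI. Nor did Tac1, Cck and Dlk1, which stand on the pars tuberalis list itself. All 6 astrocyte and all 6 fibroblast genes listed were at 0, as were all 6 microglial genes, 4 of which the gate itself limited. The myelin gene Mbp, with 40.15 CPM against 1833.5 CPM in other NC barcodes, and the choroid plexus gene Ttr, with 369.4 CPM against 36676.6 CPM, were present at low levels. Pomc had 7 UMIs in 4 barcodes.

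Genes of dense-core granules were among those high in the Chgb-high barcodes. Chgb, which encodes a granin that packs hormones into granules, had 112, 34 and 63 UMIs in the first profile, 201, 96 and 88 in the second, 43 and 45 in the third and 110, 129 and 74 in the fourth. The subset was cut on Chgb, so its ratio is only a description. Resp18, an endocrine granule protein that did not enter the cut, had 63 to 604 UMIs in each of the 11 barcodes and 21441.6 CPM in all, against 45.6 CPM in other NC barcodes, a log2 ratio of 8.88 (interval 8.77 to 8.99). Scg2 stood at 9.32, Chga at 8.92, the granule membrane protein gene Ptprn at 8.22 and the convertase chaperone gene Scg5 at 6.61. Pcsk1, a convertase that cuts prohormones, had 17 UMIs in 7 barcodes, and Pcsk2 and Vgf had none. Of 14 tested genes on the list for prohormone processing and granules, Chgb among them, 11 were higher and 1 was lower, beside 23.5% and 24.0% of all genes tested. The lower gene, Secisbp2l, stands on that list but is not a granule gene. Genes close to absent elsewhere passed the minimum only by being high here. Of 8 tested genes for exocytosis and calcium channels 7 were higher, among them Snap25, a fusion protein of the plasma membrane, at a log2 ratio of 6.75, and the calcium channel subunit genes Cacna2d1 at 6.52 and Cacna1d at 5.96.

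**Figure D3:**
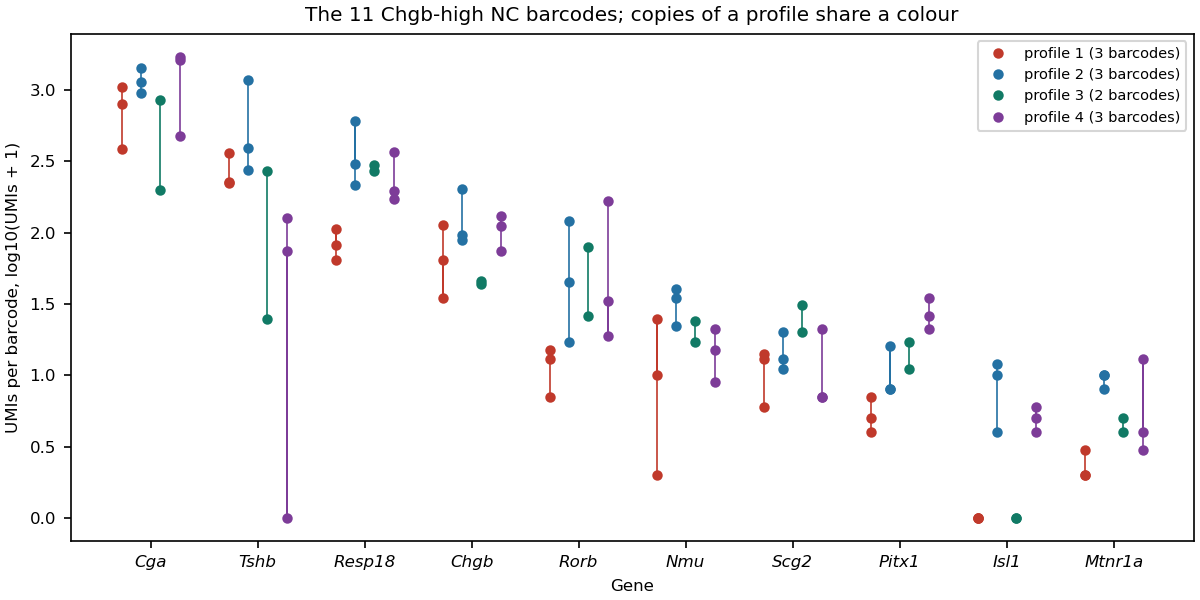
UMIs per barcode, as log10(UMIs + 1), of 10 genes in the 11 Chgb-high NC barcodes; each point is a barcode and each line joins the near-identical copies of a profile. Resp18, Chgb and Mtnr1a are above 0 in all 11 barcodes, while the Tshb of a copy in profile 4 is at 0 beside copies at 126 and 74.

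Circadian clock genes were also high in the Chgb-high barcodes. All 19 listed clock genes were tested, and 15 were at least 2-fold higher than in other NC barcodes and 1, Nfil3, was lower, beside 23.5% and 24.0% of all genes tested. Their median log2 ratio was 2.92 against -0.08 for all genes tested. Higher clock genes were not particular to this subset: in the Epcam-positive barcodes, described below, 10 of 15 tested were higher too. Rorb, a nuclear receptor of the clock that also marks neural and sensory cells, had 531 UMIs (4264.2 CPM) and a log2 ratio of 7.23. Hlf, a clock-controlled factor that binds D-box sites, stood at 9.03, but its 166 UMIs lay in 8 barcodes and none in the 3 copies of the first profile. The heme receptor Nr1d1 stood at 5.11, the D-box factor Dbp at 4.40, Timeless at 4.34, Clock at 3.41 and Per3 at 2.94. Cry1, which melatonin raises in the pars tuberalis of sheep, was at 1.36 (1.42, interval 0.21 to 2.40, with copies counted once). Arntl, the partner of Clock, was at 0.30 with 5 UMIs.

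Signalling genes showed a narrower pattern. Melatonin acts on pars tuberalis cells through receptors that lower cyclic AMP, the messenger that phosphodiesterases break down. Of 12 tested genes of cyclic AMP signalling 5 were higher and 2, Adcy9 and Creb1, were lower, with a median log2 ratio of 0.77, beside 23.5% and 24.0% of all genes tested. The phosphodiesterase genes Pde10a and Pde7b stood at 5.85 and 3.58, with 56 UMIs in 8 barcodes and 136 in 10. Both were also found in the shallow barcodes, at 149.4 CPM for Pde10a and 179.3 CPM for Pde7b, against 9.69 and 145.7 CPM in the other NC barcodes under 2000 UMIs, so Pde7b was near its background there. Of 4 tested pituitary receptor genes 1 was higher, a share near that of all genes: the adenosine receptor gene Adora2b at 6.48 with 35 UMIs in 10 barcodes. Mtnr1a stands on that list too but is not among the 4. At 425.6 CPM here and 0.0525 CPM in other NC barcodes, its mean log2 CPM fell under the minimum. The count of tested receptors thus leaves out the listed receptor found in all 11 barcodes. The dopamine receptor gene Drd2 and the somatostatin receptor genes Sstr1, Sstr2 and Sstr3 had no UMI. Of 22 neuropeptide genes in the files Nmu was detected and the other 21 were at 0. None of 6 tested genes of thyroid hormone handling was higher, and the receptor genes Thrb and Thra stood at 0.26 and -0.69.

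Stress-response genes lay on the other side. Of 11 immediate early genes tested none was higher and 8 were lower, with a median log2 ratio of -2.01, and of 8 heat shock genes none was higher and 7 were lower, with a median of -2.56, beside 24.0% lower of all genes tested. Jun, a part of the AP-1 factor induced by tissue handling, had 7 UMIs (56.21 CPM), a log2 ratio of -5.94 to other NC barcodes. Fos stood at -2.01 and the chaperone gene Hspa1b at -3.96. Of 17 genes for the unfolded protein response and secretory load 2 were higher and 2 lower. Among them, Hspa5, the main chaperone of the endoplasmic reticulum, was detected in all 11 barcodes, and its log2 ratio was 0.32 (0.43, interval 0.02 to 0.81, with copies counted once).

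The shallow NC barcodes held many of the same genes beside RNA of other kinds. They had 502 to 1764 UMIs with a median of 790, Cga between 0 and 92 UMIs with a median of 9, and Tshb between 0 and 62 with a median of 3. At least 1 of Chgb, Resp18, Rorb, Nmu and Scg2 was found in 126 of these 147 barcodes (85.7%), against 402 of the 4376 other NC barcodes from 500 to under 2000 UMIs (9.19%), and at least 2 of them in 59.2% against 1.03%. With every barcode thinned to 500 UMIs, which left none out, at least 1 was found in 76.2% of the shallow members (median depth 790 UMIs) and 6.47% of the others (974 UMIs). Per 100 Cga UMIs, Resp18 had 24.2 UMIs in the shallow and 25.2 in the Chgb-high barcodes, Chgb 9.06 and 9.38, Nmu 1.96 and 1.97, and Tshb 37.6 and 29.6. Other genes departed from those proportions: Rorb had 9.21 and 5.00, Pitx1 0.784 and 1.39, and Mtnr1a, with a single UMI in the shallow barcodes, 0.049 and 0.50. Cga and Tshb chose the members, Chgb cut the Chgb-high subset, and 44 copies of the shallow profiles stayed outside, below the hormone thresholds. The proportions are shaped by that choice and are a description, not a test. Shallow barcodes with Cga and Tshb had 1 of the 5 genes in 49 of 50, those with Cga alone in 60 of 71 and those with Tshb alone in 17 of 26.

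Genes of other cells were present beside them. Cst3, a microglial and astrocyte gene of very high level in these libraries, had 5111 UMIs in the shallow barcodes (38188.2 CPM) and 52585.3 CPM in the other NC barcodes under 2000 UMIs, and per 100 Cga UMIs it had 250.4 in the shallow and 0.547 in the Chgb-high barcodes. Ttr was found in 113 of the 147 and Mbp in 42. Against the other NC barcodes under 2000 UMIs, 23.7% of 7534 genes tested were at least 2-fold higher in the shallow members and 16.1% lower. Resp18 had a log2 ratio of 4.99 (4.80, interval 4.52 to 5.08, with copies counted once), Chgb 5.92, Rorb 4.85, Nmu 5.85 and Ptprn 6.09. Of 12 tested genes on the list for prohormone processing and granules 8 were higher and none lower, while of the oligodendrocyte genes 4 of 6 were lower. Neuronal genes were higher beside the granule genes: 4 of 4 tested neuroblast genes (Stmn2, Dlx1, Sox11 and Tubb3, at 8 to 34 UMIs) and 3 of 3 neuron genes (Gad1, Snap25 and Syt1, at 8 to 49 UMIs). The files held 6 listed neuroblast and 8 listed neuron genes. Genes close to absent in the other barcodes pass the minimum only if they are high in the shallow ones, so these counts of granule and neuronal genes are no test. Dlx1, Sox11 and Gad1 were at 0 in the Chgb-high barcodes, and Chgb and Rorb were detected in 35.1% and 30.6% of the 373 barcodes of the neuroblast gate (Dcx, Tubb3 and Stmn2 all detected, below the hormone thresholds). The part of neuronal RNA in these values was not tested. NC barcodes under 500 UMIs, given below, held Cga RNA too, and whether the shallow barcodes hold cells or free RNA was not tested.

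**Figure D4:**
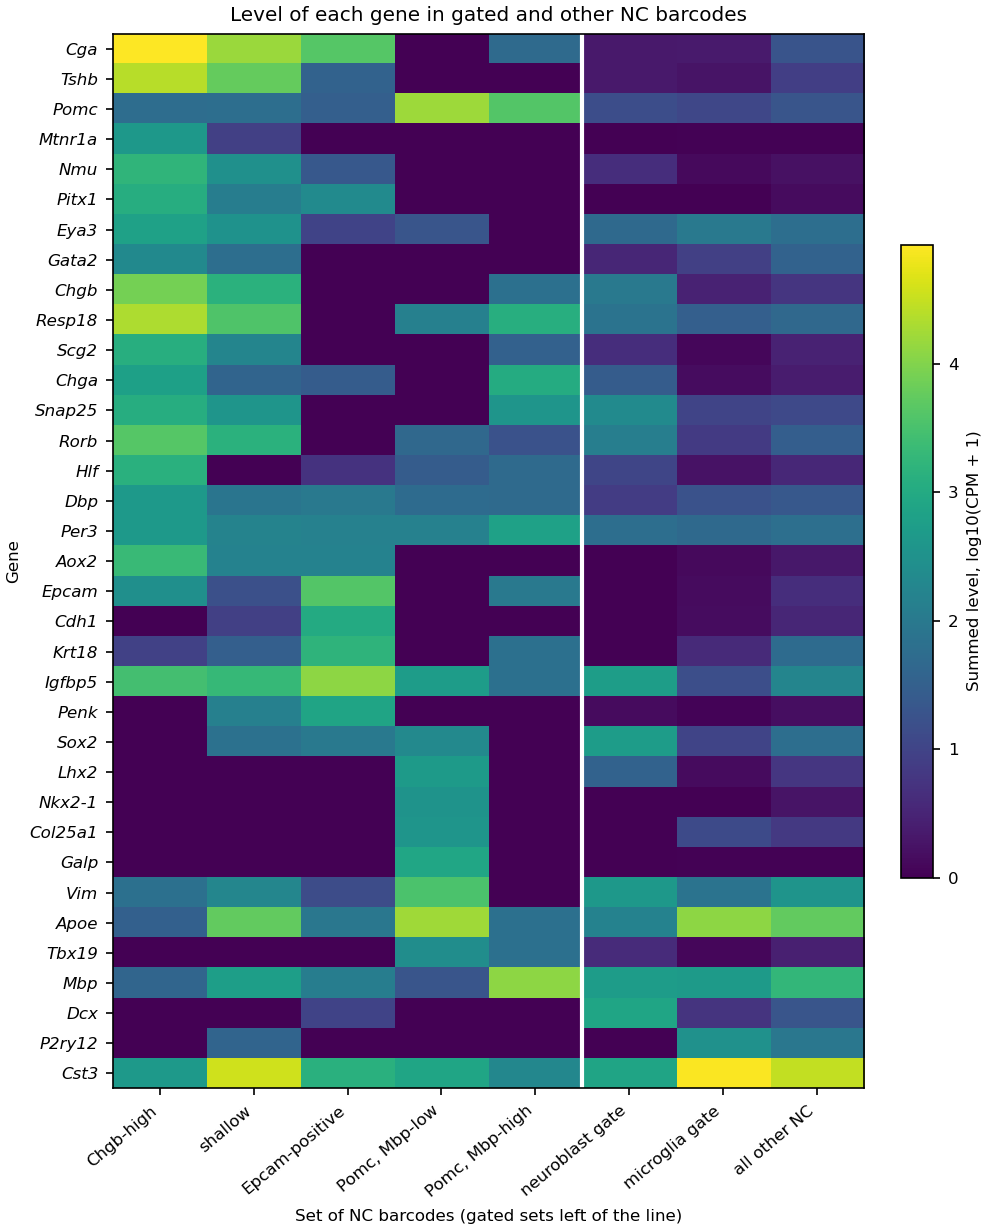
Summed level of each gene, as log10(CPM + 1), in 5 gated sets of NC barcodes (left of the white line) and in NC barcodes of a neuroblast gate, a microglia gate and all other NC barcodes (right). Resp18 and Chgb are bright in the Chgb-high and shallow columns and dark in the Epcam-positive one, Epcam and Cdh1 are brightest in the Epcam-positive column, and Lhx2, Nkx2-1 and Galp are brightest in the column with Pomc and little Mbp.

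The Epcam-positive barcodes carried Cga without the thyrotropin subunit and had a set of epithelial genes. Across 21 NC barcodes in 8 profiles of 3935 to 23882 UMIs, Cga had 5 to 212 UMIs with a median of 30, while Tshb was found in 3 barcodes, all copies of a single profile, with 2 or 3 UMIs. Chgb, Resp18, Scg2, Rorb and Mtnr1a were at 0 in all 21. Epcam had 960 UMIs in 20 barcodes, but the subset was cut on it. Cdh1, the cadherin of epithelia, was found in 21 of 21 (1050.9 CPM, log2 ratio to other NC barcodes 8.77, 8.94 with copies counted once, interval 8.54 to 9.34). The keratin genes Krt18 and Krt8 stood at 4.95 and 5.41. Among pituitary factors, Pitx1 was found in 9 barcodes, Isl1 in 10 and Gata2 in none.

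Their profiles differed among themselves. Penk, the enkephalin precursor, had 46, 41 and 72 UMIs in 1 profile, which also had 212, 33 and 128 Cga UMIs, and at most 4 in any other barcode. Igfbp5, a binding protein of insulin-like growth factors, had 2 to 917 UMIs and 12115.3 CPM in all, a log2 ratio of 6.11. Against other NC barcodes 19.6% of 7912 genes tested were at least 2-fold higher and 26.0% lower. Of 5 tested genes of pituitary stem and folliculostellate cells 3 were higher (Krt8, Krt18 and Sox9), and S100b, the defining folliculostellate marker, was at 0. Of 15 tested clock genes 10 were higher and 2 lower. Immediate early genes ran the other way from the Chgb-high set, with 4 of 11 higher (Fosb, Btg2, Atf3 and Egr1) and 1 lower. The lists do not settle which epithelium these barcodes came from, and no cell type is given to them here.

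The Pomc barcodes held no other pituitary hormone at its threshold, although 1 Cga UMI was found in each of 3 of the 14. In the 4 NC profiles with little Mbp, Pomc had 34, 42 and 26 UMIs in copies of 5526, 5299 and 5191 UMIs, 98, 38 and 48 in copies of 2553, 2348 and 2296, 759 and 359 in copies of 30816 and 29118, and 606, 330 and 147 in copies of 24359, 23817 and 23301. Cga, Tshb, Chgb, Scg2 and Pitx1 were at 0 in all 11. Tbx19, the factor that switches on Pomc in the pituitary, had 7, 24 and 10 UMIs in the last of these profiles and none in the others. Of the other genes listed for corticotrophs and melanotrophs, Crhr1, Pcsk1, Neurod1, Pax7, Pcsk2 and Drd2 were at 0. So were all 8 neuron genes listed. Of the list for arcuate Pomc neurons, Cartpt and Lepr were at 0, while 3 of 4 tested genes were higher, namely Pomc itself, Nkx2-1 and Tbx3, a factor with 7 UMIs in 3 barcodes and a log2 ratio of 2.14. That count is no test, since Pomc chose these barcodes and Nkx2-1, at 0.780 CPM elsewhere, passed the minimum only by being high here.

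Genes of hypothalamic glia were also found. Lhx2, a factor that keeps tanycytes in their fate, was detected in 11 of 11 barcodes (76 UMIs, log2 ratio to other NC barcodes 6.58, 6.62 with copies counted once, interval 6.02 to 7.17). Nkx2-1, a factor of the basal hypothalamus and the posterior lobe that stands on the Pomc neuron list, had 52 UMIs in 8 barcodes and a log2 ratio of 8.75. Col25a1 had 58 UMIs in 5 barcodes, and Crym, a thyroid hormone binding protein of tanycytes, 26 in 10. Vim, an intermediate filament of glia, was at 3375.9 CPM and a log2 ratio of 3.24. Of 5 tested tanycyte genes 4 were higher and none lower, against 22.1% higher and 25.4% lower of 8022 genes tested. Genes close to absent elsewhere, such as Crym (2.51 CPM) and Lhx2 (5.12 CPM), pass the minimum only if they are high here. This count is therefore no test. Galp, a galanin-like peptide of the arcuate nucleus and of pituicytes, the glia of the posterior lobe, had 126 UMIs, all in the 5 copies of the 2 deepest profiles, against 10 UMIs in all NC barcodes outside the gate. Apoe, a lipid carrier of glia, had 2578 UMIs in 10 barcodes, with 0 and 466 in the 2 copies of 1 profile. Of 11 immediate early genes 10 were lower and none higher.

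The remaining deep NC members were of other kinds. The Pomc profile with much Mbp had 118, 50 and 86 Pomc UMIs beside 153, 536 and 64 of Mbp, a gene of oligodendrocyte myelin on which it was cut, and also 19, 27 and 20 of Chga and 25, 32 and 19 of Resp18. The 2 barcodes with Tshb and much Mbp had 3 and 4 Tshb UMIs beside 135 and 261 of Mbp, and a further barcode of 10524 UMIs had 3 of Tshb and 8 of Mbp. These 3 barcodes were the only members of their profiles and rest on counts at or next to the threshold. The last profile had 3 copies of 2018 to 2071 UMIs with both Cga and Tshb at their thresholds.

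The gate held a smaller share of barcodes in CO than in NC. It took 0.148%, 0.0874% and 0.0991% of the 3 CO libraries, against 1.09%, 1.02% and 0.840% of the 3 NC libraries. These ranges do not overlap, but the libraries of a group were like parts of a single pool and are not counted as replicates. Pooled, 0.112% of CO barcodes (exact binomial interval 0.0685 to 0.173) and 0.980% of NC barcodes (0.849 to 1.125) were members. With copies counted once, 8 of 6506 CO profiles (0.123%) and 94 of 7496 NC profiles (1.25%) were, a ratio of CO to NC of 0.0981 (0.0411 to 0.201). The gap depended on depth. Under 2000 UMIs there were 0 members among 3251 CO barcodes, or 0 of 1292 profiles (exact binomial upper limit 0.285%), against 147 members of 4523 NC barcodes, 73 of 1772 profiles (4.12%). From 2000 UMIs on there were 8 of 5294 CO profiles (0.151%) against 21 of 5803 NC profiles (0.362%), a ratio of 0.418 (0.160 to 0.981). With 1 sample a group, an effect of carbon monoxide and a difference in what tissue was taken cannot be told apart.

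The CO members were also of a different make. None had both Cga and Tshb at threshold and none was Chgb-high. Of the 20, 5 (2 profiles) were Epcam-positive, with Cga at 22, 41 and 47 UMIs in 1 profile and 43 and 141 in the other, and with Krt18 in all 5. A Pomc profile of 3 copies with 11542, 11379 and 11125 UMIs had 334, 68 and 86 Pomc UMIs, Nkx2-1 at 2, 1 and 3, Crym at 12, 17 and 42, and Lhx2 at 0. Another 11 barcodes (4 profiles) had Cga at 5 to 96 UMIs in 34617 to 98891 UMIs, depths far above the CO library medians of 5600 to 5667.5. Their Cga level was 97.59 to 2773 CPM, and they also held Col1a1 at 3 to 118 UMIs, with Tshb, Chgb, Resp18 and Pitx1 at 0. The last barcode had 4 Tshb UMIs of 14521.

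A thyrotropin-rich CO profile existed outside the gate, set aside by its microglial genes. Its 3 copies, of 15792, 15398 and 13791 UMIs, had 1036, 506 and 10 Cga UMIs, 885, 912 and 0 Tshb UMIs, 105, 189 and 241 of Resp18, 143, 108 and 51 of Scg2, 2, 5 and 4 of Mtnr1a and 376, 444 and 482 of Cst3, with 2, 3 and 3 of the 4 microglial genes detected. Those 3 barcodes held 1552 of the 2141 Cga UMIs and 1797 of the 1849 Tshb UMIs of all CO barcodes. In NC the same criterion set aside 32 barcodes (15 profiles), among them a profile with 526, 490 and 210 Cga UMIs and 111, 183 and 179 Tshb UMIs. Counting Cga with at least 20 Resp18 UMIs from 2000 UMIs on, whatever the microglial genes, gave 1 CO profile of 5294 against 5 NC profiles of 5803, a ratio of 0.219 with an interval of 0.00464 to 1.96. At that count a difference between the groups in deep thyrotropin cells was not detectable.

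Hormone RNA also differed between the groups in barcodes too shallow for the gate. Under 500 UMIs Cga was at 1.45 CPM in CO (1 UMI, Poisson interval 0.037 to 8.08) and 1104.6 CPM in NC (944 UMIs, 1035.3 to 1177.4), and 0.0544% of CO and 10.9% of NC barcodes there held a UMI of it, at median depths of 373 and 369.5 UMIs. The 3 CO libraries were at 0, 0 and 4.35 CPM and the 3 NC libraries at 1007.1, 1383.8 and 959.8. All 3 NC values lie outside the pooled NC interval. The Poisson intervals given here take each UMI as independent, do not count copies once and are too narrow. Tshb was at 1.45 CPM in CO and 404.9 in NC. Pomc differed less there, at 71.06 CPM in CO (52.57 to 93.95) and 87.76 in NC (69.03 to 110.0), and was detected in 0.544% of CO and 2.30% of NC barcodes. From 500 to under 1000 UMIs it was at 27.19 CPM in CO (18.83 to 38.0) and 86.16 in NC (72.66 to 101.4), and from 1000 to under 2000 UMIs at 17.4 in CO (12.25 to 23.98) and 75.3 in NC (65.96 to 85.59), depths at which neither group had a Pomc member. In NC barcodes the Cga level fell with depth through bins that began at 0, 500, 1000, 2000 and 5000 UMIs, at 1104.6, 1023.1, 385.2, 117.9 and 98.26 CPM. In CO it was at 1.45, 1.60, 0, 0.565 and 20.2 in the same bins.

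Cells that should lack the hormones give the background. In barcodes with at least 3 of the 4 microglial genes that also missed the hormone thresholds Cga was at 0.195 CPM in CO and 1.24 in NC, with a Cga UMI in 0.107% of CO and 0.577% of NC barcodes (median depths 6553 and 5757.5 UMIs), and Pomc at 6.01 and 10.4 CPM. These levels leave out hormone-rich barcodes by construction: 2 CO and 8 NC barcodes with at least 3 microglial genes passed a threshold, and with them Cga was at 12.7 CPM in CO and 37.95 CPM in NC. Over all barcodes of at least 500 UMIs that missed the hormone thresholds, Cga stood at 0.315 CPM in CO and 4.48 in NC, Tshb at 0.380 and 3.08, and Pomc at 16.5 and 19.3. The members held 25.6% of all Cga UMIs and 19.0% of all Pomc UMIs in CO, against 80.5% and 51.1% in NC. Pomc outside the members was spread over 1088 CO and 1485 NC barcodes that had a UMI of it.

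**Figure D5:**
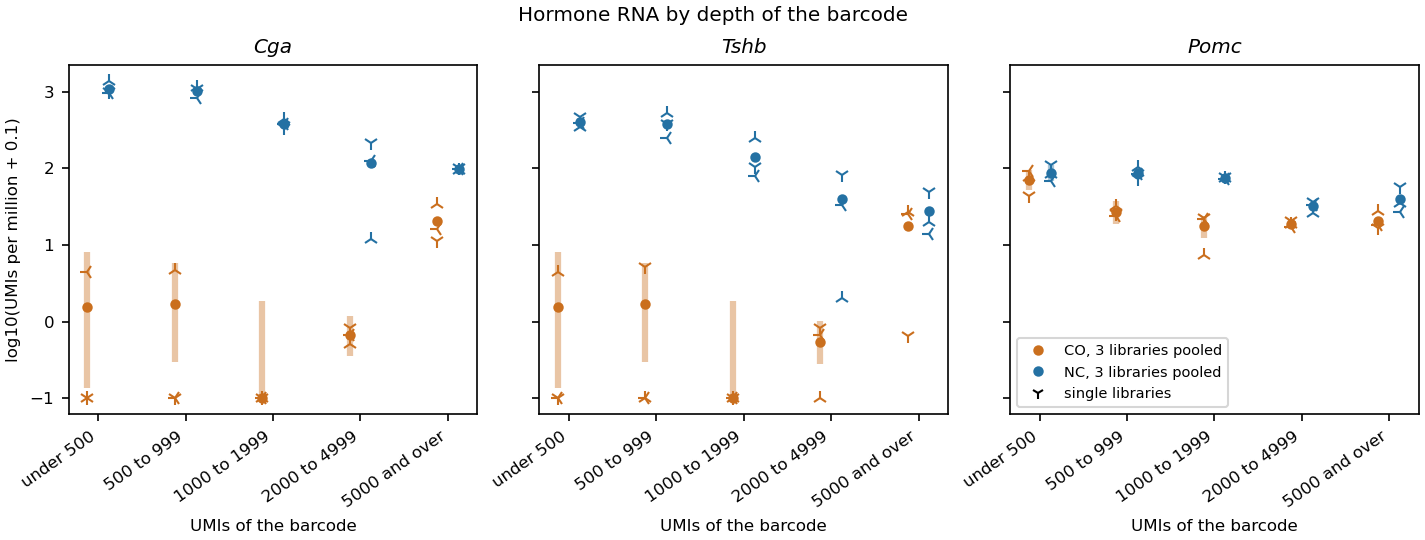
Levels of Cga, Tshb and Pomc in CPM, as log10(value + 0.1), by total UMIs of the barcode, in CO and NC; dots pool the 3 libraries of a group, pronged marks are single libraries and vertical bars are 95% Poisson intervals of the pooled value. For Cga under 500 UMIs the CO dot is at 1.45 and the NC dot at 1104.6 CPM; for Pomc they are at 71.06 and 87.76 there, and at 27.19 and 86.16 in the next bin.

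As a whole set, the 199 NC members had 924 of 7732 tested genes (12%) at least 2-fold higher and 845 (10.9%) at least 2-fold lower than the 20107 other NC barcodes. TMM scaling lowered all ratios by 0.17 on the log2 scale and gave 684 higher and 1085 lower, so that 38.7% of calls were upward against 52.2% before it. By the rule for named genes, those with the highest ratios beyond Cga, Tshb, Pomc and genes given above included Isl1, a factor of endocrine and neural lineages, at a log2 ratio of 10.11, Alkal2, a ligand of the receptor ALK, at 9.13, Aox2, an aldehyde oxidase gene, at 8.57, the stress gene Ddit4l at 7.13, the ribosomal paralog Rpl39l at 6.87, the potassium channel gene Kcnk3 at 6.41 and the cadherin gene Cdh18 at 6.32. These genes came from different subsets. Alkal2 had 109 of its 125 UMIs in Chgb-high barcodes, and Isl1 35 of 65 in Chgb-high and 24 in Epcam-positive ones. The lowest ratios were those of Cav1 at -6.31, Clic5 at -5.92, F5 at -5.80, Fcgr2b at -5.78 and S100a4 at -5.48, each with 1 UMI in the members.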

How the data were processed

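Droplet libraries of 3 CO and 3 NC samples were read as UMI counts per gene and barcode, deposited by the authors unnormalised for 15227 genes. Per the submitters' processing notes, reads were processed with Cell Ranger against Rnor_6.0, and its version and settings were not given in the sources used here. Of the nonzero counts 43.56% were 1, 26.49% were 2, 7.376% were 3 and 7.639% were 4, an excess of even values whose origin was not tested, so that thresholds of 5 or 3 UMIs may not stand for as many independent molecules.

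Counts were summed over barcodes, scaled to a total of 1000000 (CPM) and compared as log2 ratios, with a sum of 0 set to 3 counts. A gene was tested when it had at least 30 UMIs over both sets and a mean log2 CPM of at least 4 (16 CPM), and was called at 2-fold. Listed genes could be named whatever their value. Beyond them, the 20 highest ratios of members over other NC barcodes (at least 50 UMIs, detected in at least 10% of members) and the 10 lowest (at least 50 CPM in the others) could be named, and genes outside these rules were chosen after their values were seen. The rule also provided for genes that divide Pomc from Cga and Tshb members, but the 14 Pomc members were under its minimum of 20. The members, lists and subsets were chosen with earlier results of these data known. Chgb-high barcodes had at least 20 Chgb UMIs on average over a profile, Epcam-positive ones at least 1 Epcam UMI, and those with much Mbp at least 50 Mbp UMIs. Among deep members these cuts were applied in the order Pomc, Chgb, Mbp and Epcam, so Chgb-high barcodes could also hold Epcam. Some genes of the lists are not reported here. Intervals are exact (Clopper-Pearson, Poisson or binomial) at 95%. Doublets were not removed. In an alternative Scrublet (scanpy 1.11.5) took out 111 to 407 CO and 177 to 220 NC barcodes a library, with 1 CO and 6 NC members among them; for the CO library where it called 5 barcodes (0.0748%) the highest 6% of scores were taken. TMM factors came from edgeR 4.0.16 and served as a scaling only. The comparison was tried on simulated independent sums with known folds, and the overlap of detected genes on redraws of single barcodes. The sums held no near copies, so they do not check the intervals under the dependence found here. The linking of barcodes into profiles was not simulated. Promoter sequences are from RefSeq (GRCr8), which is not the build of the counts. Python 3.11.15, numpy 2.4.6, scipy 1.17.1, pandas 2.3.3, matplotlib 3.10.9 and R 4.3.3 were used.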

Additional observations from a re-analysis of the deposited data

How the results depend on the processing

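No paired analysis was possible because the results come from no test. The share of barcodes in the gate stayed lower in CO than in NC under each alternative tried. The CO share was 0.196% with lowered thresholds (Cga 3, Tshb 2, Pomc 10) and otherwise within counting error of its 0.112%. The NC share of 0.980% became 0.645% with doubled thresholds, 1.52% with lowered ones, 0.502% from 1000 UMIs, 0.330% from 2000 UMIs, 1.19% with no minimum, 1.14% with no limit on microglial genes and 0.749% with none of them detected. Counting copies once, added after the data were seen, gave 1.25%, and 1.49% when copies had to share 75% of genes.

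The classes moved most. Barcodes with Cga and Tshb numbered 37 with doubled thresholds, 31 from 1000 UMIs, 15 from 2000 UMIs and 37 with copies counted once, and 39 to 47 with a library left out. Those with Cga alone numbered 34, 20 and 55 under the last 3 of these settings, and 60 to 61 with a library left out. Those with Tshb alone numbered 14 with doubled and 92 with lowered thresholds, 11 from 1000 and 3 from 2000 UMIs, 50 with no minimum, 19 with no microglial gene, and 16 to 24 with a library left out. Pomc barcodes numbered 5 with copies counted once at either overlap, and 8 to 12 with a library left out.

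Genes called higher in members numbered 552 with lowered thresholds, 1391 with cells thinned to 1000 UMIs and 2321 with no minimum on counts, and those called lower 1445 under thinning and 1958 with no minimum. Cga outside the members, 17.7 CPM in NC, was at 1.24 in the microglia gate and 4.48 below the thresholds. Tshb, 7.19 CPM, was at 0.847 and 3.08, and Pomc, 19.3 CPM, was at 10.4 in the microglia gate. Of 975 single-gene values 949 kept their direction and side of 2-fold. Vim stood at -0.87 with no microglial gene detected, against 1.01, and Bhlhe40 at -0.085 under thinning, against 1.60. Eya3 lost its call over all members without NC replicate 01 (0.66), Sox9 (0.47) and Vim (0.96) without NC replicate 02, and Tef (0.75) without NC replicate 03. The cause was not tested in these cases.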

Other observations

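Genes that marked the subsets were also looked for without the hormones, in all barcodes of at least 500 UMIs. At least 5 Epcam UMIs were found in 23 CO barcodes (13 profiles) and 29 NC barcodes (16 profiles). Of these, 4 CO and 23 NC barcodes had Cga at its threshold, and 3 CO and 20 NC barcodes were members. Epcam-rich barcodes were thus present in both groups in like numbers, but those with Cga were of mixed kinds. In NC they included Chgb-high barcodes with 6, 5 and 6 Epcam UMIs, and in CO a copy of the thyrotropin-rich profile with 6. The CO Epcam-positive profile with Cga at 43 and 141 UMIs had 2 and 4 of Epcam and was missed. These counts therefore do not compare Cga in Epcam-positive barcodes between the groups. At least 20 Chgb UMIs together with at least 20 of Resp18 were found in 0 CO and 11 NC barcodes, the NC ones being the Chgb-high members. That subset was itself cut at 20 Chgb UMIs, so this search is no separate finding. It also missed the profiles with both Cga and Tshb that microglial genes set aside. Their copies had 8, 13 and 5 Chgb UMIs in CO, beside 105, 189 and 241 of Resp18, and 9, 11 and 12 Chgb UMIs in NC. Nkx2-1 and Lhx2, which marked the NC Pomc barcodes with little Mbp, were detected together in 2 CO barcodes (1 profile), none of them with Pomc, and in 22 NC barcodes (9 profiles), of which 15 had a Pomc UMI and 8 were members. With 1 sample a group these counts have no test, and near copies are counted in them.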
